A study of Mus musculus with 10 samples.

Results

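The 41 genes described here are induced by type I interferon, and they were taken as every non-control probe on the array whose gene name was one of the 41. They have 70 probes, of which 58 passed the filter on dim probes, so that 39 of the 41 were measured among the 20607 genes measured on the array. Oas3 and Mx1 had no probe that passed. Total RNA of cardiac tissue from male mice was labelled with cyanine-3 and hybridised to 1-colour Agilent arrays, 5 of HIPK2 knockout and 5 of wild type, and no treatment is given for either. The knockout was made by CRISPR in C57BL/6 embryos, and carried a 56-base deletion in exon 2 of Hipk2, which shifts the reading frame. It was kept by crosses to C57BL/6 wild-type mice, and the labels give neither an age nor the number of founder lines. HIPK2 is a protein kinase of the nucleus that acts on regulators of transcription. The replicates were not said to be separate mice, so the spread behind each p-value is that between these samples, which may be technical, and the number of arrays limits their precision.

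Type I interferons are cytokines that almost all cells make when they sense foreign or misplaced nucleic acid. They bind the receptor IFNAR1/IFNAR2, the kinases JAK1 and TYK2 are activated, and a complex that holds STAT2 and IRF9 binds interferon-stimulated response elements in promoters. The induced genes encode nucleic acid sensors, enzymes that block viral replication, the ubiquitin-like protein ISG15 and the factors that sustain or end the response, and many are also expressed at a low level in tissue without infection.

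The response element is built on repeats of GAAA spaced by 2 bases, and promoter sequences are shown for the members that fell in knockout hearts and hold such a pair. The motif GAAANNGAAA was sought on both strands, read on the minus strand as TTTCNNTTTC, in the RefSeq windows of 300 bases around gene starts (GRCm38.p6), and overlapping matches were counted singly. Of 32817 windows, 1126 held it (3.43%), as did 15 of the 38 windows of members (39.5%), which belong to 14 of the 32 members with a window. Capitals mark the matches, and the stretches lie upstream of the gene start, on the gene's own strand. Ifit1 has 2 matches on the opposite strand (chr19:34640745-34640853, plus strand), and Isg15 has 3 that overlap (chr4:156200835-156200936, minus strand). Stat2 (chr10:128270248-128270325, plus strand) and Trim30a (chr7:104465194-104465269, minus strand) have 1 each in the window shown, and a second Trim30a window, at another start, has 1 that is not shown.
Ifit1: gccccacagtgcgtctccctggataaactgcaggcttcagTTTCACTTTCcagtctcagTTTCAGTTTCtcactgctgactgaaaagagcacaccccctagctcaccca
Isg15: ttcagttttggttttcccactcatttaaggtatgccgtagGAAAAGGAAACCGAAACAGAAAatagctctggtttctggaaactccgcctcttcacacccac
Stat2: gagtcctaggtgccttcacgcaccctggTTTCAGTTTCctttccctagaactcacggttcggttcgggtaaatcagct
Trim30a: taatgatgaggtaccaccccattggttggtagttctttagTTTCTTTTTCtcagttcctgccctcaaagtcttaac
Among the other members that fell, Oasl1, Oasl2 and Herc6 have windows without a match, and Oas2 and Mx2 were not matched to a window. A further 10 members have a match: Oas1a, Oas1g, Oas3, Ifih1, Ddx60, Eif2ak2, Ifit3, Rsad2, Bst2 and Ifitm3. Oas3 was not measured. The others did not pass the adjusted threshold given below, though all but Oas1g had a lower mean in knockout. A match describes letters only, and no binding was measured.

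Signal is given on a log2 scale relative to each array's 75th percentile, so that 0 is the signal of a spot at that rank, and differences are those of knockout from wild type (negative where knockout is lower), each ± its standard error (SE) from limma. Levels of different genes are not compared, as each comes from its own probe. Of the 39 measured members, 9 fell in knockout hearts (23.1%), none rose and 30 did not pass (limma, Benjamini-Hochberg adjusted p under 0.05 over all 20607 genes). Over all genes 2.97% fell, and 4.94% passed in either direction. The 9 were Isg15, Oasl1, Oasl2, Oas2, Herc6, Ifit1, Mx2, Stat2 and Trim30a, and the folds ran from 1.31 to 1.74. The difference was below 0 for 37 members, and above 0 for 2, Oas1g and Dtx3l, where 9450 of all 20607 genes were below 0. The median difference over the members was -0.39, with a range of -0.80 to 0.19, where the median of all genes was 0.03. At an unadjusted p under 0.05, 28 members were lower, against 12.3% of all genes. In 7 members every knockout value lay below every wild-type value, which held for 4.44% of all genes: Oasl1, Ifit1, Ifih1, Stat2, Cmpk2, Herc6 and Trim30a. In RNA of a whole tissue, fewer cells of a type and less RNA per cell cannot be told apart.

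**Figure D1:**
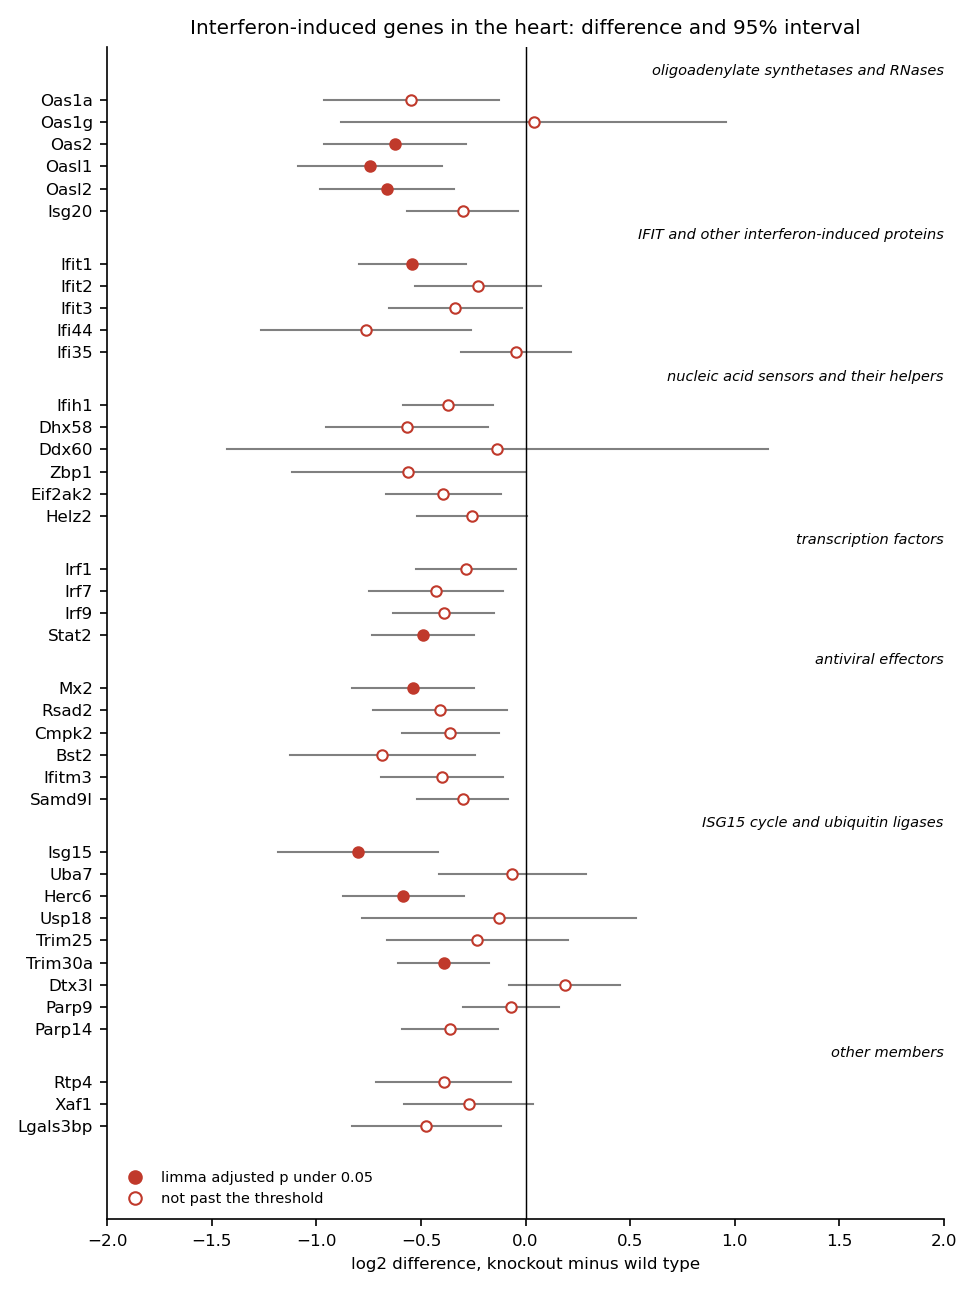
Log2 difference between knockout and wild type (horizontal axis, point) with its 95% interval (line) for the 39 measured members, grouped by role, with filled points for members past an adjusted p of 0.05 in limma. The 9 filled points lie between -0.80 and -0.39, and 37 of the 39 points lie left of 0.

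The oligoadenylate synthetases make the short 2′-5′ linked RNA that activates RNase L, and their relatives Oasl1 and Oasl2 carry a synthetase domain joined to ubiquitin-like domains. Of the 6 measured of 7 in this group, with the exonuclease Isg20, 3 fell and none rose. Oasl1 had signals of -1.30, -1.40, -0.71, -1.36 and -0.90 in knockout replicates 1 to 5 and -0.59, -0.45, -0.54, -0.10 and -0.27 in wild-type replicates 1 to 5 (probe at chr5:115387861-115387920, mm9). All knockout samples were below all wild-type samples, with knockout replicate 3 the nearest, and the difference was -0.74 ± 0.16 (1.67-fold lower, limma adjusted p = 0.0285). Its second probe gave -0.83 ± 0.16. Oasl2 had 0.02, 0.06, 0.23, -0.01 and 0.55 in knockout and 0.45, 0.73, 0.90, 1.1 and 0.99 in wild type (chr5:115362168-115362227). Only knockout replicate 5 reached above a wild-type sample, wild-type replicate 1, and Oasl2 was 1.58-fold lower (-0.66 ± 0.15, limma adjusted p = 0.0329). Oas2 had 0.45, 0.69, 1.09, 0.76 and 0.78 in knockout and 0.96, 1.22, 1.62, 1.46 and 1.61 in wild type (chr5:121180343-121180402). Knockout replicate 3 lay above wild-type replicate 1, and the other knockout samples lay below every wild-type sample, with a difference of -0.62 ± 0.15 (1.54-fold lower, limma adjusted p = 0.0451). The synthetase Oas1a had a difference of -0.55 ± 0.19 (limma adjusted p = 0.106) and Isg20 one of -0.30 ± 0.12 (limma adjusted p = 0.141), and neither passed. Oas1g was dim, above background on 3 knockout and 4 wild-type arrays, and its difference of 0.04 ± 0.42 was far smaller than its interval (-0.88 to 0.96). The Oas genes are neighbours on chromosome 5 and close relatives, so a probe may also take up RNA of a neighbour. Oas3 was above background on no array.

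The IFIT proteins bind foreign RNA ends or sequester translation factors, and Ifi44 and Ifi35 are other induced cytoplasmic proteins. Of these 5 members 1 fell. Ifit1 had signals of -2.23, -2.10, -2.23, -2.27 and -1.99 in knockout and -1.91, -1.67, -1.67, -1.29 and -1.56 in wild type (chr19:34723827-34723886). The groups did not overlap, with knockout replicate 5 and wild-type replicate 1 the closest, and Ifit1 was 1.45-fold lower (-0.54 ± 0.12, limma adjusted p = 0.0305). With normexp background correction its difference was -0.27 (adjusted p = 0.0519). Ifi44 had the second lowest difference of all members, -0.76 ± 0.23, but wild-type replicate 1 lay among the knockout samples and it did not pass (limma adjusted p = 0.0745). Its second probe was above background on no knockout array and all 5 wild-type arrays, which gives a fold of at least 1.57 (limma adjusted p = 0.239 over probes), taking each knockout array at the higher of its own signal and the lowest signal above background. Ifit3 had a difference of -0.34 ± 0.14, Ifit2 of -0.23 ± 0.14 and Ifi35 of -0.05 ± 0.12, with limma adjusted p of 0.163, 0.3 and 0.833. Ifit1, Ifit2 and Ifit3 are related and neighbours on chromosome 19.

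None of the 6 nucleic acid sensors and their helpers passed, and all 6 had differences below 0, 4 of them at an unadjusted p under 0.05. Ifih1 encodes MDA5, a sensor of long double-stranded RNA. It had -1.39, -1.21, -1.35, -1.41 and -1.11 in knockout and -1.05, -1.11, -0.86, -0.78 and -0.83 in wild type, without overlap though knockout replicate 5 and wild-type replicate 2 nearly met, and a difference of -0.37 ± 0.10 (limma adjusted p = 0.054). Dhx58 encodes LGP2, which tunes that sensing, and had -3.75, -3.35, -3.20, -3.37 and -2.80 in knockout and -3.17, -2.71, -2.65, -2.55 and -2.57 in wild type. Its groups overlapped through knockout replicate 5 and wild-type replicate 1, and its difference was -0.57 ± 0.18 (limma adjusted p = 0.0821). Eif2ak2, the kinase PKR that halts translation on double-stranded RNA, had a difference of -0.39 ± 0.12 (limma adjusted p = 0.0848). Zbp1, a sensor of Z-form nucleic acid, gave -0.56 ± 0.25 on its brightest probe and 0.81 ± 0.51 on its second, which was above background on 3 knockout and 4 wild-type arrays. The Zbp1 values were -2.58, -3.02, -3.47, -2.75 and -2.64 in knockout and -3.08, -2.06, -2.59, -1.71 and -2.22 in wild type, which overlapped (limma adjusted p = 0.181). Helz2, a helicase co-activator, also differed in sign between probes, with -0.25 ± 0.12 on the brightest and 0.07 ± 0.10 on the other. Helz2 values were 1.78, 1.90, 2.33, 1.84 and 1.86 in knockout and 2.04, 2.14, 2.11, 2.37 and 2.32 in wild type, so that knockout replicate 3 lay within the wild-type range (limma adjusted p = 0.194). Ddx60, a helicase that assists RNA sensing, was dim and variable, with -0.14 ± 0.59 on its brightest probe, above background on 2 knockout and 4 wild-type arrays. The second Ddx60 probe was above background on no knockout array and 4 wild-type arrays, and no fold can be given for it.

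Of the 4 transcription factors 1 fell, and all 4 were lower at an unadjusted p under 0.05. Stat2 is a partner of IRF9 in the complex that carries the signal to the response element. It had 0.33, 0.43, 0.57, 0.32 and 0.73 in knockout and 0.75, 0.94, 1.20, 1.00 and 0.93 in wild type (chr10:127729834-127729893). Each knockout sample was below each wild-type sample, though knockout replicate 5 nearly met wild-type replicate 1, and Stat2 was 1.40-fold lower (-0.49 ± 0.11, limma adjusted p = 0.0361). Irf9, the DNA-binding subunit, had a difference of -0.39 ± 0.11 on its brightest probe (limma adjusted p = 0.0636 over genes). Its second probe gave -0.45 ± 0.10 and passed when each probe was its own row (limma adjusted p = 0.0343 over probes). Irf7, the factor that amplifies interferon production, had -0.43 ± 0.15 (limma adjusted p = 0.0991), and Irf1 had -0.28 ± 0.11 (limma adjusted p = 0.129).

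Of the 7 antiviral effectors 6 were measured and 1 fell, and all 6 were lower at an unadjusted p under 0.05. Mx2, a dynamin-like GTPase of antiviral defence, had -2.43, -2.35, -2.16, -2.43 and -1.91 in knockout and -2.01, -1.83, -1.59, -1.49 and -1.67 in wild type (chr16:97782327-97782386). Knockout replicate 5 lay above wild-type replicate 1 and the rest of the groups were apart, with a difference of -0.54 ± 0.13 (1.45-fold lower, limma adjusted p = 0.0462). With normexp correction this was -0.22 (adjusted p = 0.127). Bst2, tetherin, which holds budding virus at the cell surface, had the lowest difference in the group, -0.69 ± 0.20, but knockout replicate 1 was within the wild-type range (limma adjusted p = 0.07). Cmpk2, a mitochondrial nucleotide kinase, had -0.36 ± 0.10 with no overlap (limma adjusted p = 0.069). Its genomic neighbour Rsad2, viperin, had -0.41 ± 0.15, the membrane protein Ifitm3 -0.40 ± 0.13 and Samd9l -0.30 ± 0.10, with limma adjusted p of 0.11, 0.0936 and 0.0931. Ifitm3 also belongs to a family of close relatives. Mx1 was above background on no knockout array and 3 wild-type arrays.

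The ISG15 cycle attaches ISG15 to other proteins with the enzyme Uba7 and a ligase of the Herc family, and Usp18 removes it. Of these and the other ubiquitin and ADP-ribose enzymes, 9 members in all, 3 fell. Isg15 had the lowest difference of all members. Its signals were 1.14, 0.62, 0.99, 0.72 and 0.79 in knockout and 1.11, 1.54, 1.72, 2.10 and 1.80 in wild type (chr4:155573649-155573708). Only wild-type replicate 1 lay among the knockout samples, and Isg15 was 1.74-fold lower (-0.80 ± 0.17, limma adjusted p = 0.0325). Herc6, the ligase that joins ISG15 to its targets in mouse, had -4.21, -4.16, -4.62, -3.93 and -4.03 in knockout and -3.69, -3.51, -3.81, -3.55 and -3.47 in wild type (chr6:57568608-57568667). The Herc6 groups did not overlap, but only 2 knockout arrays, against all 5 wild-type arrays, had it above background. Its difference was -0.58 ± 0.13 (1.50-fold lower, limma adjusted p = 0.0349), and with normexp correction it was 0.06 (adjusted p = 0.642). Trim30a, a ligase that restrains inflammatory signalling, had -1.11, -1.16, -1.05, -1.16 and -0.96 in knockout and -0.92, -0.69, -0.51, -0.52 and -0.82 in wild type (chr7:111560170-111560747). The groups were apart by a narrow gap, with -0.39 ± 0.10 (1.31-fold lower, limma adjusted p = 0.0488), and its other probes gave -0.32 and -0.17. Normexp correction gave -0.22 for Trim30a (adjusted p = 0.101). The enzymes at either end of the cycle did not pass: Uba7 had -0.06 ± 0.16 (limma adjusted p = 0.828) and Usp18 -0.13 ± 0.30 (limma adjusted p = 0.815).

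The other members of that group have less to do with ISG15 itself. Trim25, a ligase of RNA sensing, had -0.23 ± 0.20 on its brightest probe (limma adjusted p = 0.471), and -0.01 ± 0.08 and -0.44 ± 0.14 on its others. Parp14, which attaches ADP-ribose, had -0.36 ± 0.10 (limma adjusted p = 0.0683). Parp9 and Dtx3l act as a pair. Parp9 had 0.15, 0.30, 0.21, 0.08 and 0.33 in knockout and 0.04, 0.14, 0.44, 0.49 and 0.29 in wild type, which overlapped, and gave -0.07 ± 0.10 on the brightest probe (limma adjusted p = 0.695) and 0.91 ± 0.30 on a second (limma adjusted p = 0.098 over probes). Dtx3l had 0.19 ± 0.12 (limma adjusted p = 0.337). Of the 3 remaining members, none passed, and 2 were lower at an unadjusted p under 0.05. Lgals3bp, a secreted galectin-binding glycoprotein, had 2.66, 2.95, 2.90, 2.48 and 3.27 in knockout and 2.92, 3.28, 3.39, 3.56 and 3.48 in wild type, with overlap through wild-type replicate 1, and a difference of -0.47 ± 0.16 (limma adjusted p = 0.101). Rtp4, a receptor-transporting protein, had 0.95, 0.86, 1.17, 0.89 and 1.23 in knockout and 0.93, 1.34, 1.50, 1.63 and 1.66 in wild type, where wild-type replicate 1 lay within the knockout range, and a difference of -0.39 ± 0.15 (limma adjusted p = 0.123). Xaf1, which opposes inhibitors of apoptosis, had -0.27 ± 0.14 (limma adjusted p = 0.236).

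**Figure D2:**
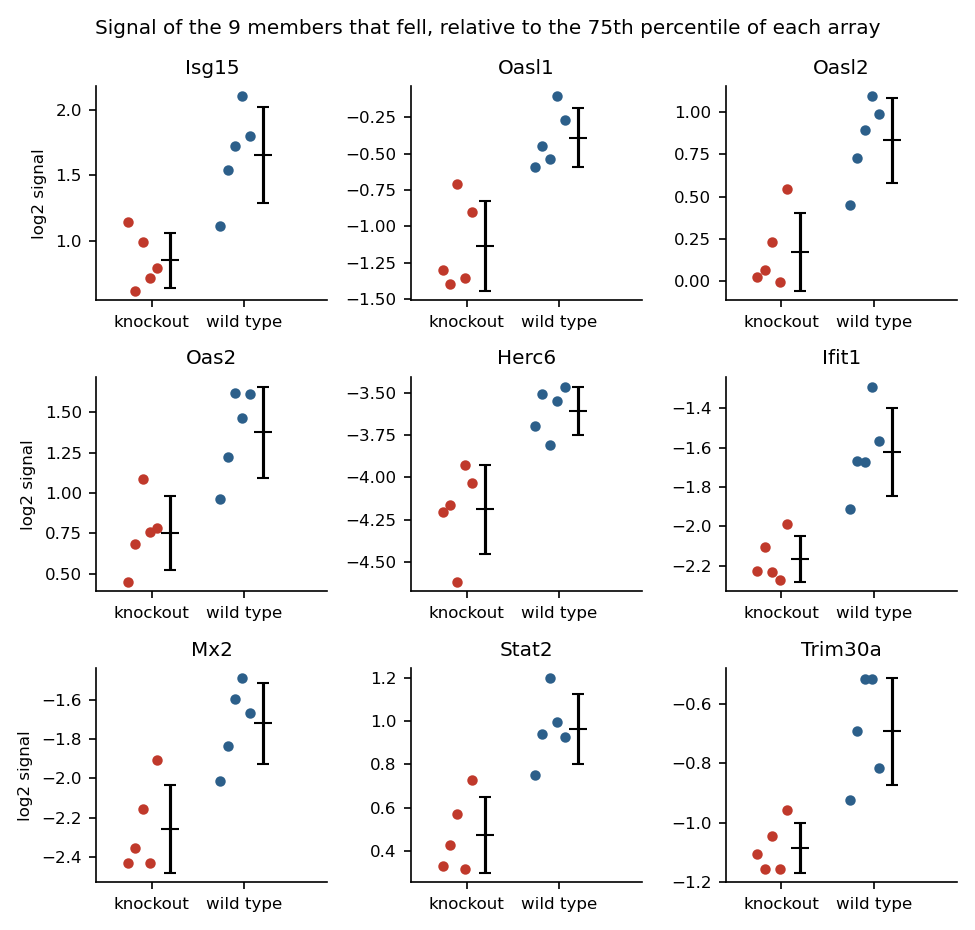
Log2 signal relative to each array's 75th percentile (vertical axis, a scale of its own in each panel) in the 5 knockout and 5 wild-type samples (points, in replicate order) for the 9 members that fell, with bars for the mean ± SD beside them. The groups lie apart in Oasl1, Herc6, Ifit1, Stat2 and Trim30a, and a single sample of one group reaches the other in Isg15, Oasl2, Oas2 and Mx2.

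Seen by probe, 10 of the 58 member probes fell and 52 had differences below 0, where 2.76% of all probes fell (limma, adjusted over 30692 probes). Of the 17 members with several kept probes, only Zbp1, Helz2 and Parp9 had probes of opposite sign. Both probes of Oasl1 passed, Irf9 passed by its second probe, and Trim30a did not pass by probe (adjusted p = 0.0524).

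The arrays differed from each other along the whole group of genes. The mean signal of the 39 members was -0.11, -0.04, 0.05, -0.19 and 0.08 in knockout replicates 1 to 5, and -0.01, 0.32, 0.44, 0.53 and 0.43 in wild-type replicates 1 to 5. The means were -0.04 ± 0.11 for the knockout arrays and 0.34 ± 0.21 for the wild-type arrays (± SD, n = 5 each). Wild-type replicate 1 was the sample that overlapped the knockout group, and was the lowest wild-type sample in 31 of 39 members. Wild-type replicate 4 was the highest of all 10 samples in 22. Among knockout samples, replicate 4 was the lowest in 20 and replicate 5 the highest in 19. The SD within genotype had a median of 0.231 over the members and 0.208 over all genes, from 0.137 for Ifih1 to 1.07 for Ddx60.

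**Figure D3:**
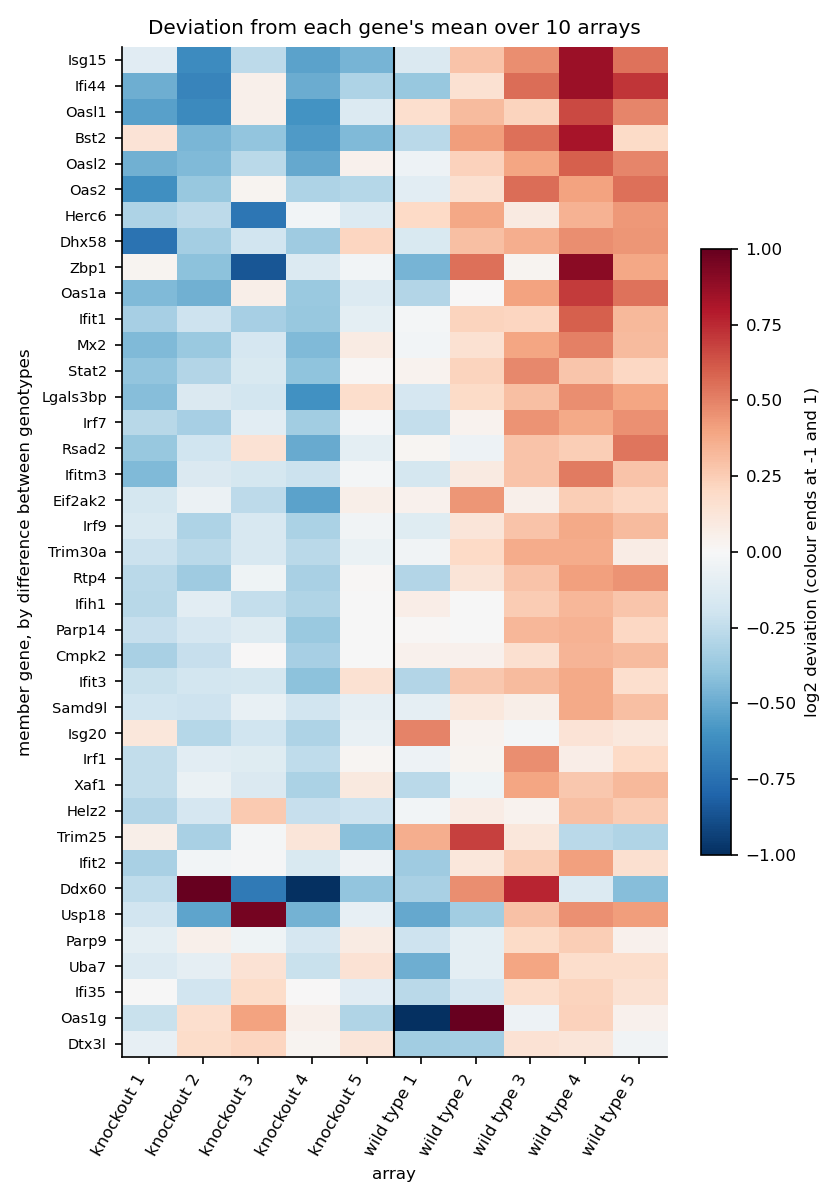
Log2 deviation of each of the 39 measured members (rows, ordered by their difference between genotypes) from its mean over the 10 arrays (columns), in blue below and red above the mean, with colours ending at -1 and 1. Wild-type replicates 2 to 5 are mostly red, the knockout replicates mostly blue, and wild-type replicate 1, lowest of its genotype in 31 members, sits between them.

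The count of 9 rested on single samples, and the share of all genes that fell, 2.97% as reported, was also lower with an array left out. Without wild-type replicate 1 the members' count was 13, and without knockout replicate 3 or 5 it was 7 or 8. Of all genes 2.23%, 2.25% and 2.88% fell in those fits. The members' count was 1 without knockout replicate 1, 1 without knockout replicate 4 and 3 without wild-type replicate 3. Of all genes 1.35%, 1.47% and 2.12% fell there. The members' count was 0 without knockout replicate 2 and 0 without wild-type replicate 2, 4 or 5. In those fits 25, 26, 25 and 24 members were lower at an unadjusted limma p under 0.05. Of all 20607 genes, 5024, 4531, 4849 and 5079 were under that unadjusted p in either direction, and 1.26%, 1.25%, 0.956% and 0.81% fell. Over all 10 fits with an array left out, the median difference of the members stayed between -0.45 and -0.34. Each called member kept its call in 1 to 4 of the 10, fewest for Trim30a, with adjusted p up to 0.106 (Trim30a) and 0.101 (Mx2) without wild-type replicate 4.

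Position on the slides was not balanced. By the file headers, slide 1 held only wild-type replicates 1 and 2. On slide 2, row 1 held knockout replicate 1 with wild-type replicates 3 to 5, and row 2 held knockout replicates 2 to 5. Within slide 2 the members' median difference was -0.48 and 12 fell, 5 of them among the 9 (limma), where 1.54% of all genes fell. With slide as a block 17 fell, 8 of them among the 9, where 2.56% of all genes fell, and Herc6 was the one lost. Slide 1 held no knockout sample, so the differences in that fit are those within slide 2. Wild-type replicates 1 and 2 add only to its estimate of spread. With slide and array row as blocks the median was -0.58, with a median SE of 0.21 against 0.14. Only row 1 of slide 2 held both genotypes, so that fit compares knockout replicate 1 with wild-type replicates 3 to 5. Within row 1 of slide 2, knockout replicate 1 was below all 3 wild-type samples in 35 of 39 members (89.7%), against 29.1% of all genes, and the median difference was -0.58, against 0.06. Of all arrays, knockout replicate 1 also had the lowest mean signal of the macrophage (1.43) and endothelial (2.49) marker lists described below. Its atrial list mean was -1.68, against 2.00, 3.59 and 3.88 in wild-type replicates 3, 4 and 5. The part of these in the members' differences was not tested. The comparison within row 1 was chosen after the data were seen and has 1 knockout sample, so no test of it is given.

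Marker lists of other heart cells were compared by their mean signal, and none of the 12 passed after Benjamini-Hochberg adjustment over the lists. The mean signal of 9 macrophage markers (9 of 9 measured, all 9 with differences below 0 and none past the threshold) was 1.43 to 1.97 in knockout and 1.94 to 2.21 in wild type, a difference of -0.36 (two-sided exact permutation p = 0.0159, adjusted 0.0635). The mean of 9 endothelial markers (9 of 9 measured, all with differences below 0, Kdr and Emcn past the threshold) was 2.49 to 2.75 in knockout and 2.84 to 3.00 in wild type, a difference of -0.29 (exact permutation p = 0.00794, the lowest value this design allows, adjusted 0.0635). Ventricular cardiomyocyte markers were measured for 9 of 9 genes at high signal in every sample, and the labels give cardiac tissue without the chamber. Their mean was 7.68 to 8.11 in knockout and 7.23 to 7.68 in wild type (0.45, exact permutation p = 0.0159, adjusted 0.0635). Atrial markers ranged widely, from -2.75 to 1.56 in knockout and from -3.02 to 4.81 in wild type (exact permutation p = 0.127, adjusted 0.169). Within slide 2 every knockout sample lay below wild-type replicates 3, 4 and 5 (2.00, 3.59 and 3.88). The difference was -1.91 for fat cell markers (exact permutation p = 0.0397, adjusted 0.119) and -0.34 for fibroblast markers (exact permutation p = 0.0714, adjusted 0.169). Lists for T and NK cells, B cells, neutrophils, red cells and skeletal muscle had differences of 0.27, 0.29, -0.09, 0.19 and 0.02. Their exact permutation p were 0.119, 0.0873, 0.762, 0.333 and 0.849. Of single markers in these lists, Cd4 of T cells (0.62, limma adjusted p = 0.0491) and Elane of neutrophils (0.60, limma adjusted p = 0.0443) rose. Postn of fibroblasts fell, from a mean of 1.24 in wild type to 0.24 in knockout (limma adjusted p = 0.0305). Of measured markers, 1 of 6 for T and NK cells, 4 of 7 for neutrophils and 4 of 7 for fibroblasts were below 0. The list for plasmacytoid dendritic cells, the main makers of interferon, had 5 of 9 genes measured, 1 below 0 and none past the threshold. Its difference was 0.28 (exact permutation p = 0.127), and a gene measured in it, Cox6a2, is also a heart muscle gene.

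**Figure D4:**
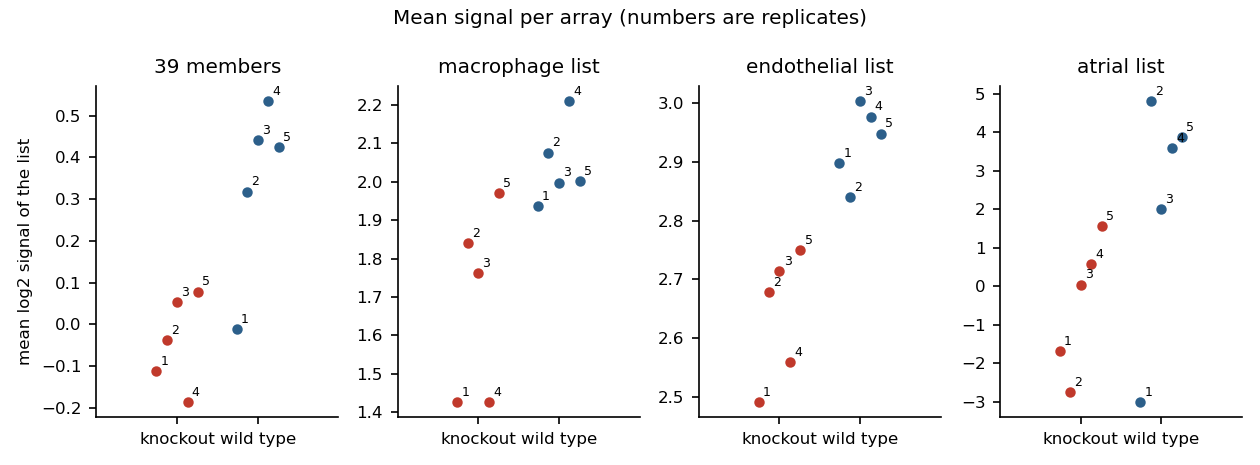
Mean log2 signal per array (vertical axis, a scale of its own in each panel) of the 39 members and of the macrophage, endothelial and atrial marker lists, with a point for each sample and its replicate number beside it. Knockout samples lie below every wild-type sample for the endothelial list, and wild-type replicate 1 lies at -0.01 for the members and -3.02 for the atrial list.

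With the macrophage score as a covariate the members' median difference was -0.18, 32 were below 0 and 0 passed in limma, with 4 lower at an unadjusted p under 0.05. Of all genes 3 rose and 3 fell in that fit. With the atrial score as a covariate the median was -0.31, 34 were below 0, and 0 members passed, with 15 at an unadjusted p under 0.05. The part of tissue makeup in the members' differences was not tested. Spot signal at the 75th percentile was 286 to 460 in knockout and 462 to 542 in wild type, and 45.8% to 58.3% and 55.7% to 60.4% of spots were well above background. Signal level and genotype cannot be told apart here. Of the 3 probes of Hipk2, with differences of -0.01, 0.04 and 0.11, none passed, and whether any of them lies in the deleted stretch was not determined here.

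**Figure D5:**
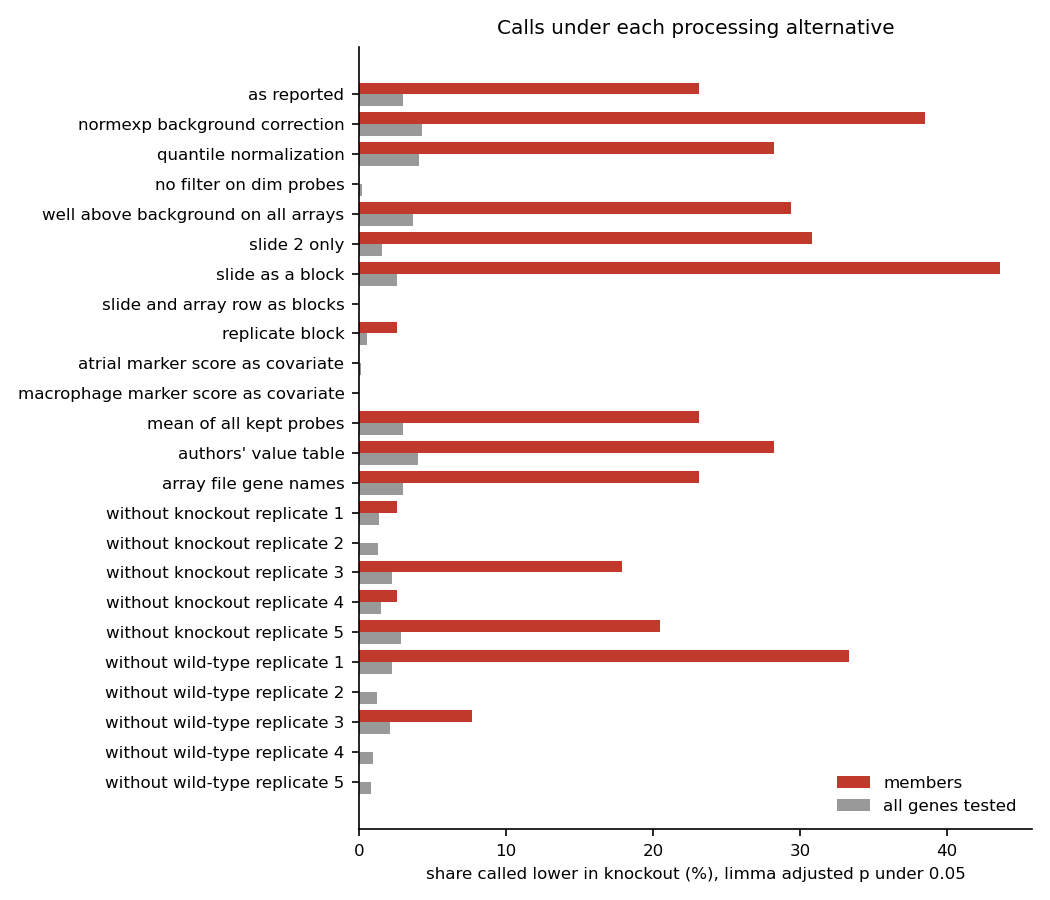
Share of members (red bars) and of all genes tested (grey bars) called lower in knockout (horizontal axis, percent, limma adjusted p under 0.05) as reported and under each processing alternative. The fit with slide and array row as blocks rests on 1 knockout sample. The members' share is 23.1% as reported, runs from 0% to 43.6%, and is 0% under 8 of the settings shown.

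The rest of the interferon pathway was read from lists of 83 genes, of which 68 were measured, 6 fell (8.82%) and none rose. Of all genes 2.97% fell. Of 16 ligand genes 6 were measured, and all 6 had differences above 0 with none past the threshold in limma. At an unadjusted limma p under 0.05, 1 of the 6 was higher, Ifna9. Ifna9 had -3.12, -3.00, -2.69, -3.16 and -2.82 in knockout and -3.88, -3.60, -3.37, -3.31 and -3.05 in wild type, with overlap, and a difference of 0.49 ± 0.16 (limma adjusted p = 0.0879). Ifnab had 0.47 ± 0.22 (limma adjusted p = 0.189). Interferon genes are near-identical copies that a probe may not separate. Ifnb1 and 9 other ligand genes had no probe that passed the filter. Of the list of the receptor and its immediate signalling proteins, 5 of 5 were measured and none passed in limma, with 1 lower at an unadjusted p under 0.05. Jak1 had 2.75, 2.52, 2.55, 2.83 and 2.78 in knockout and 2.89, 2.84, 3.02, 3.00 and 3.14 in wild type, without overlap, and -0.29 ± 0.09 (limma adjusted p = 0.0858). Ifnar1 had -0.24 ± 0.14 (limma adjusted p = 0.303).

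Of 11 measured genes of nucleic acid sensing upstream of interferon, 2 fell, where 2.97% of all genes did. Myd88, the adaptor of most Toll-like receptors, had 1.04, 1.07, 0.95, 1.17 and 1.19 in knockout and 1.66, 1.58, 1.47, 1.61 and 1.52 in wild type, without overlap, and was 1.40-fold lower (-0.49 ± 0.08, limma adjusted p = 0.0132). Sting1, the adaptor of DNA sensing, had -0.08, 0.25, 0.44, 0.18 and 0.52 in knockout and 0.59, 0.58, 0.93, 1.19 and 1.08 in wild type, without overlap, with -0.61 ± 0.15 (limma adjusted p = 0.0488). Of 10 negative regulators 1 fell. Socs3, an inhibitor of JAK kinases that cytokines of the interleukin 6 family induce strongly, had -0.83, -0.36, -0.07, -0.10 and -0.41 in knockout and 0.89, 0.84, 0.89, 0.71 and 1.98 in wild type. Wild-type replicate 5 stood above the other wild-type samples, the groups did not overlap, and Socs3 was 2.67-fold lower (-1.41 ± 0.24, limma adjusted p = 0.0154). Of 36 other measured interferon-induced genes, 31 had differences below 0, where 9450 of all 20607 genes did. In that list 3 genes fell, where 2.97% of all genes did. The 3 were the ubiquitin ligase Rnf213 (-0.57 ± 0.09, limma adjusted p = 0.0147), Slfn5 (-0.42 ± 0.08, 0.0195) and Phf11d (-0.52 ± 0.10, 0.0195). Rnf213, Slfn5 and Phf11d values did not overlap between the groups. In 9 of the 68 measured pathway genes every knockout value lay below every wild-type value, which held for 4.44% of all genes. Socs3, Myd88 and Rnf213 kept their calls with each array left out in turn. Without wild-type replicate 5 the pathway count was 3, since Slfn5 (adjusted p = 0.0503), Phf11d (0.0535) and Sting1 (0.0949) missed the threshold.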

How the data were processed

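Cardiac RNA of 5 HIPK2 knockout and 5 wild-type samples was hybridised to 1-colour Agilent arrays. In the array files the authors deposited, each spot has a linear intensity, and per the submitters' processing notes they were made with Agilent Feature Extraction 10.7.1.1. Per the file headers, the processed intensity is background-subtracted and detrended within each array, with no scaling between arrays. The authors also deposited a value table on a log2 scale, whose columns matched their own arrays (r of 0.704 to 0.983, against at most 0.241 for other arrays) and which served as an alternative. Its filtering, background treatment and centring are not given in the sources used here.

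The log2 of the processed signal minus that of each array's 75th percentile over 59305 non-control spots was used. Spots of a probe were averaged, which gave 56605 probes. Probes well above background on at least 4 of 5 arrays of a genotype were kept (30692), and a gene was read from its brightest kept probe (20607 genes). Names came from a RefSeq gene table by accession (32994 probes) or from the array file (23611), and 55 member probes matched with the same name and none with another. Probe positions are on mm9, whose exon and intron annotation was not used here. The genotypes were fitted in limma 3.58.1 (R 4.3.3) without covariates, and p-values adjusted by Benjamini-Hochberg over all genes, with a threshold of 0.05. The fit was tested on simulated data. Marker scores were tested by exact permutation, two-sided, over 252 arrangements. Alternatives were normexp correction (offset 50), quantile normalization, other dim-probe filters, slide, row and replicate blocks, marker covariates, other probe and name rules, the value table and each array left out.

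The members, the lists of markers and pathway genes and their roles were chosen with earlier results of these data known. Full values are given for members past the threshold, for members whose probes differ in sign and, in a role group with none past it, for the 2 with the smallest p. Pathway genes named are those past the threshold, or else the 2 with the smallest p of a list.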

Additional observations from a re-analysis of the deposited data

Results flagged for a closer look

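Of 102 groups of 5 samples checked among members, named pathway genes and the macrophage and atrial scores, 4 held a sample far from the others of its group by Dixon's test, where chance gives about 1 in 20. Dhx58 was -3.17 in wild-type replicate 1, with -2.71 the nearest wild-type value. Helz2 was 2.33 in knockout replicate 3, with 1.90 the nearest. Bst2 was 1.66 in knockout replicate 1, with 1.12 the nearest. Socs3 was 1.98 in wild-type replicate 5, with 0.89 the nearest, and its call did not rest on that sample.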

How the results depend on the processing

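Of 892 values of single members under the alternatives, 706 kept their direction and their side of the threshold, 117 lost the call or the threshold, 40 gained it and 29 changed sign, in 12 genes. Of 229 values of named pathway genes 182 kept both, 44 lost the call, 2 gained it and 1 changed sign. The sign of these small differences was as follows. Herc6 was 0.064 and Ddx60 0.35 with normexp correction. Oas1g was -0.052 with quantile normalization and with the authors' value table, -0.056 within slide 2 and with slide as a block, -0.30 with slide and row, -0.057 without knockout replicate 3 and -0.36 without wild-type replicate 1, and with an array left out ranged from there to 0.36 (without wild-type replicate 2). Trim25 was 0.040 within slide 2 and with slide as a block and 0.22 with slide and row, where Isg20 was 0.043 and Dtx3l -0.15. With the atrial score Ifi35 was 0.050, Uba7 0.11 and Usp18 0.10, and with the macrophage score Ifit2 was 0.015, Ddx60 0.64, Uba7 0.17, Usp18 0.16, Parp9 0.11 and Ifnar1 0.051. With the mean of all kept probes Zbp1 was 0.12 and Parp9 0.42. Ddx60 was 0.024 without knockout replicate 3, 0.19 without knockout replicate 4 and 0.038 without wild-type replicate 3, within a range of -0.74 to 0.19. Uba7 was 0.028 without wild-type replicate 3 (range -0.19 to 0.028), and Ifi35 0.0042 without wild-type replicate 4 (range -0.12 to 0.0042). The cause of these changes was not tested.

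Counts are given as member genes called, all genes called, pathway genes called and member probes that fell, which were 9, 1017, 6 and 10 as reported. They were 15, 3111, 11 and 18 with normexp correction, and 2 member probes rose, against none as reported. Of all genes 2233 rose and 878 fell, against 405 and 612. With no filter on dim probes they were 0, 173, 0 and 0 (26 members at an unadjusted limma p under 0.05), where 37325 genes were tested. Within slide 2 all genes called were 458. With slide as a block, where the differences are those within slide 2, member genes called were 17 and member probes that fell 18. Of all genes 2.56% fell with slide as a block. With slide and array row as blocks no count is given here, as the difference rests on 1 knockout sample. With the atrial score as a covariate they were 0, 57, 0 and 0, and with the macrophage score 0, 6, 0 and 0. Leaving out each array gave 0 to 13 member genes, 282 to 940 genes of all, 3 to 8 pathway genes and 0 to 16 member probes. Quantile normalization, the stricter filter, the mean of probes, the value table and the array file's names left 9 to 11 member genes called. Marker scores are judged here by an exact permutation p under 0.05 without adjustment over the lists, unlike above. The macrophage marker score differed by -0.39 within slide 2, where its permutation p missed that threshold, and by -0.43 to -0.29 with an array left out. The atrial marker score differed by -3.61 within slide 2, past that unadjusted threshold. With an array left out it differed by -4.02 to -2.07, past it without wild-type replicate 1 (-4.02).

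With the replicate block 1 member gene (Oas2) was called, all genes called were 164, and 0 pathway genes and 1 member probe passed, with 27 members at an unadjusted limma p under 0.05. The numbers did not pair the samples: the deviations of same-numbered samples from their group means correlated across genes at 0.02, 0.04, 0.05, -0.03 and -0.11. Signal over background limits Herc6, Oas1g, Ddx60, Zbp1, Dhx58, Ifna5, Ifna7, Ifna14 and Tlr3, whose probes were not well above background on every array.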

Other observations

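Some families among the interferon-induced genes outside the 41 are given here, chosen after their values were seen, and no test compared them. Of the Schlafen genes, Slfn5 fell by 0.42 on the log2 scale, while Slfn8 had -0.44 ± 0.18 and Slfn9 -0.26 ± 0.21 (limma adjusted p = 0.143 and 0.439). The ADP-ribosyltransferases Parp10, Parp11 and Parp12 had differences of -0.23 ± 0.15, -0.26 ± 0.10 and -0.28 ± 0.08, beside -0.36 for Parp14, and none passed. Genes of antigen processing had differences of -0.27 ± 0.22 for the peptide transporter Tap1, -0.06 ± 0.14 for Psmb8 and -0.01 ± 0.18 for Psmb9, subunits of the immunoproteasome (limma adjusted p = 0.44, 0.796 and 0.987). Pml and Apobec3 lay above 0, at 0.23 ± 0.10 and 0.34 ± 0.21 (limma adjusted p = 0.153 and 0.319). The lowest difference in that list was Apol9b's, -0.81 ± 0.26, which did not pass (limma adjusted p = 0.0856).

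The endosomal sensor Tlr7 had a difference of 0.95 ± 0.30, the highest of the pathway genes, and did not pass (limma adjusted p = 0.0873). Its values were -0.87, -1.10, -0.56, -1.47 and -1.04 in knockout and -2.84, -2.58, -1.53, -1.53 and -1.31 in wild type. The lowest were those of wild-type replicates 1 and 2, the arrays on slide 1, and knockout replicate 4 lay below wild-type replicate 5. The part of slide in the Tlr7 difference was not tested.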
